A study of Mus musculus with 12 samples.

Results

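The genes described here are 115 genes for voltage-gated sodium channels, potassium channels and voltage-gated calcium channels, out of 18193 genes measured in differentiating mouse embryonic stem (ES) cells. They were chosen by name alone: a probe set, the group of short probes that reads a transcript, was taken where its only gene symbol had the form of an Scn, Kcn or Cacn channel gene. That gave 11 sodium channel genes (30 probe sets), 80 potassium channel genes (158) and 24 calcium channel genes (55). The cells were differentiated as a monolayer in the serum-free medium N2B27, and RNA was read on 12 Affymetrix arrays in 6 groups of 2. The parental line, rtTA, was harvested at day 7 without and with doxycycline (Dox). The line rtTA-Dmrt5, in which Dox acts through the rtTA activator on a Dmrt5 transgene, was harvested at day 7 and day 9, again without and with Dox, which was given from day 5. All 6 groups carry rtTA, and no parental array of day 9 was analysed here. Whether the 2 replicates of a group came from separate cultures is not stated. The p-values therefore rest on the spread between arrays, part of which may be technical.

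Values are log2 differences from the gene's median over the 12 arrays, so that 0 is that median and a step of 1 is a doubling. They compare arrays for a given gene and cannot set the level of a gene against that of another. A change is the difference of 2 group means with its standard error (SE), and it was called where the limma fit over all 18193 genes gave a Benjamini-Hochberg adjusted p under 0.05. Dmrta2, the current name of Dmrt5, was examined first as a check of the labels. It was lower in the rtTA-Dmrt5 arrays labelled +Dox, with a change of -2.42 ± 0.33 (adjusted p = 0.00198) at day 7. The change was -2.61 ± 0.33 (adjusted p = 0.000495) at day 9 and, in the parental line, 0.10 ± 0.33 (adjusted p = 0.987). Its probe set can miss RNA of a transgene that lacks the probed stretch, and where the probes lie was not read here, so the check settles nothing about the transgene. Groups are therefore called "labelled +Dox" and "labelled -Dox", and every direction below rests on these labels. Of the neural markers, 8 of 8 progenitor and 10 of 12 neuronal ones lay in the brightest class of median level (log2 of at least 8). Markers of other cell types lay there too, among them Krt8, Epcam and Pou5f1, so the class does not show which cells were present.

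Channels of these families set the electrical behaviour of a cell. Sodium channels open on depolarisation and carry the upstroke of the action potential, calcium channels turn depolarisation into calcium entry that triggers transmitter release and gene expression, and potassium channels repolarise the membrane, hold the resting potential and set firing rates. Each has a pore-forming subunit and, in many cases, auxiliary subunits that place the channel in the membrane or shift its gating. As neurons form from progenitors in culture, sodium and calcium channel genes are known to be switched on with the axonal scaffold that holds them. The 115 genes were dimmer than the array as a whole. A median log2 level of at least 8 was read for 9 of them (7.83%, against 32.9% of all genes), 4 to 8 for 64, 2 to 4 for 40 and under 2 for 2.

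The sequences before the start sites of 6 of these genes are shown because they carry the largest or most coordinated changes below. Scn11a rose most in the arrays labelled +Dox, Kcnk5 and Kcnk16 are neighbours that rose together, Kcnh1 and Kcnc2 fell most at day 7, and Scn2a rose most among pore-forming sodium channel genes with time. Each run is the 250 bases before the start in the RefSeq promoter table (build GRCm38.p6), 5′ to 3′ on the gene's strand. Of the 115 genes, 88 were found in that table. The windows are Scn11a at chr9:119825457-119825706 (minus strand), Kcnk5 at chr14:20181783-20182032 (minus), Kcnk16 at chr14:20269270-20269519 (minus), Kcnh1 at chr1:192190527-192190776 (plus), Kcnc2 at chr10:112269767-112270016 (plus, the first of 4 listed starts) and Scn2a at chr2:65620519-65620768 (plus, the first of 2). Capitals mark ACANTGT, the core of the motif bound by Dmrt factors, and CAGCTG, an E-box bound by basic helix-loop-helix factors such as those of neurogenesis. Both motifs read the same on either strand, and they do not overlap.
Scn11a: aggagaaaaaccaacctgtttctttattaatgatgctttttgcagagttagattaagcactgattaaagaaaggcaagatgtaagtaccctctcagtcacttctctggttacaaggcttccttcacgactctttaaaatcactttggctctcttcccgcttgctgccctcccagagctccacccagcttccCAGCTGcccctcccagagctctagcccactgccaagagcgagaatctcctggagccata
Kcnk5: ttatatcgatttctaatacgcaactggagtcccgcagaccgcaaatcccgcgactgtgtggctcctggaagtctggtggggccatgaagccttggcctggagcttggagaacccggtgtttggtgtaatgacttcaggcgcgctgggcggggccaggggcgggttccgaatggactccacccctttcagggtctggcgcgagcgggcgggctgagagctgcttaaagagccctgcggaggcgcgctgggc
Kcnk16: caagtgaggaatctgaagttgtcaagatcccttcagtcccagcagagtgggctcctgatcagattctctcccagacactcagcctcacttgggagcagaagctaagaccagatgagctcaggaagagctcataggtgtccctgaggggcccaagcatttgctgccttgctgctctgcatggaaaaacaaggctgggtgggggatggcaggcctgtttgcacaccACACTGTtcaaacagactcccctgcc
Kcnh1: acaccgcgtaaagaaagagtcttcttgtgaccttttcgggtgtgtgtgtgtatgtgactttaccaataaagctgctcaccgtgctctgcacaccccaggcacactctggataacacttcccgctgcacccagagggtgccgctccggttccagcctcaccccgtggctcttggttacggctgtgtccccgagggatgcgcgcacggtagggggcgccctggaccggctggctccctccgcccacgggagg
Kcnc2: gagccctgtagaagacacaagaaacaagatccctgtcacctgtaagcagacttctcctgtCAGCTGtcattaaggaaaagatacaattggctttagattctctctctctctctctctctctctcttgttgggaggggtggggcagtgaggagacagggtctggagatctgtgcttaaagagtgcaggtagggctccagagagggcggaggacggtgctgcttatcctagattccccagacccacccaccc
Scn2a: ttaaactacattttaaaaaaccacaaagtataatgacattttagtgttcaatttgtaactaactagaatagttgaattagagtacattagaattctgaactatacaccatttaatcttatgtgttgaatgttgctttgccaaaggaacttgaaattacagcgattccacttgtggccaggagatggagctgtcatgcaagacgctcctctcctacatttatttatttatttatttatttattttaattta

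In these windows the loose Dmrt core was found before Kcnk16, as ACACTGT, and the E-box before Scn11a and Kcnc2. The Dmrt core was present in 7 of 123 channel gene windows (5.69%) and in 6.47% of all 32851 windows in the table. The E-box was present in 32 of 123 (26.0%) and in 13.0% of all windows. These are counts of letters within 250 bases, given as a description.

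**Figure D1:**
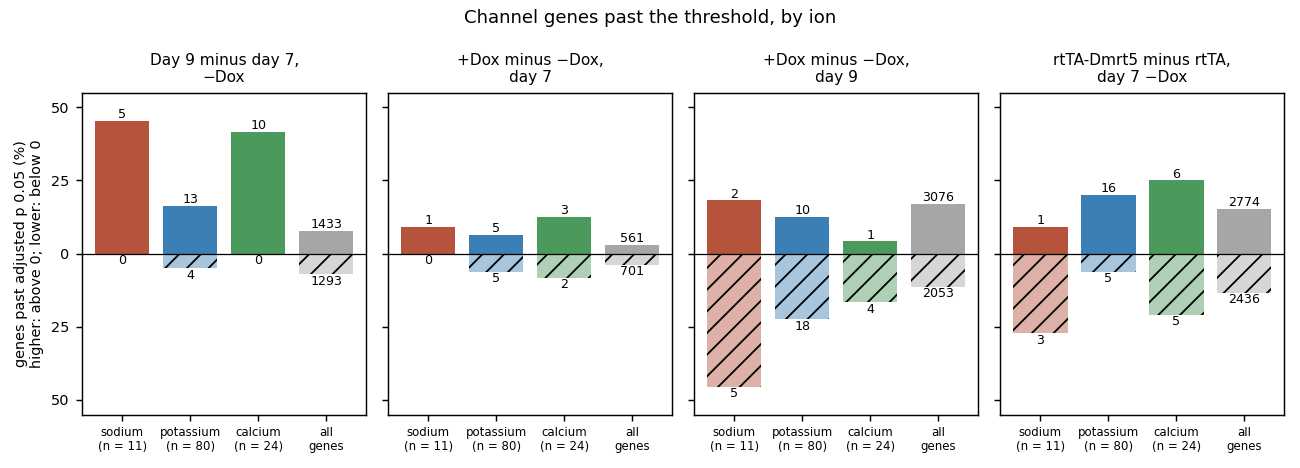
Share of channel genes past adjusted p 0.05 in 4 comparisons, by ion and over all 18193 genes; bars above 0 are genes higher and hatched bars below 0 genes lower, in percent, with the number of genes on each bar. Without Dox, 5 of 11 sodium and 10 of 24 calcium channel genes were higher at day 9 than at day 7 and none of either was lower. At day 9 in arrays labelled +Dox, 5 of 11 sodium channel genes were lower. Both comparisons use the day 9 arrays labelled -Dox, so they are not independent.

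Medians by ion were taken over members that went opposite ways. The median over the 11 sodium channel genes of the group means was -0.07 in rtTA cells labelled -Dox, 0.00 in rtTA labelled +Dox, -0.04 and -0.28 in rtTA-Dmrt5 at day 7 labelled -Dox and +Dox, and 0.20 and 0.08 at day 9. Over the 24 calcium channel genes it was highest at day 9 labelled -Dox (0.23) and lay between -0.08 and 0.00 in the other 5 groups. Over the 80 potassium channel genes the 6 medians lay between -0.04 and 0.07. From day 7 to day 9 without Dox the median change was 0.36 over sodium, 0.37 over calcium and 0.10 over potassium channel genes. With the +Dox label the median changes at day 9 were -0.41, -0.15 and -0.06 in the same order. At day 7 they were -0.20, -0.02 and -0.05.

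In rtTA-Dmrt5 cells without Dox, day 9 was compared with day 7 to follow the course of differentiation. Of the 115 channel genes 28 rose (24.3%) and 4 fell (3.48%), while of all genes 7.88% rose and 7.11% fell. By ion, 5 of 11 sodium, 13 of 80 potassium and 10 of 24 calcium channel genes rose, and the 4 that fell were potassium channel genes. Among genes of median level 4 to 8, which hold most channel genes, 35.9% of channel genes and 11.6% of all genes rose. In all 32 called genes the arrays of the 2 days did not overlap, which was so for 75 of the 115 (65.2%) and for 59.0% of all genes. With 2 arrays in each group such separation is common: between the parental arrays labelled +Dox and -Dox, where no gene was called, it was found in 35 of the 115 (30.4%) and in 33.1% of all genes.

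Scn2a, a main pore-forming sodium channel of central neurons, stood at -0.52 and -0.27 at day 7 and at 1.30 and 1.42 at day 9, a rise of 1.76 ± 0.15 (adjusted p = 0.000132). Both day 9 arrays were above every other array in the series. Scn3b, an auxiliary beta subunit, stood at -0.69 and -0.47 at day 7 and at 1.21 and 1.14 at day 9 (1.75 ± 0.15, adjusted p = 0.000139), again with no overlap. The other probe set of Scn3b gave 0.14, and the 4 of Scn2a ran from 0.26 to 2.12. Scn3a, the pore-forming subunit prominent in embryonic brain, rose by 0.69, the beta subunit Scn2b by 0.52, and Scn9a, best known from sensory neurons, by 0.45. The pore-forming Scn8a gave 0.36 ± 0.11 (adjusted p = 0.0664), Scn1a 0.12, Scn10a 0.01 and Scn7a 0.05, and the beta subunit Scn4b -0.47, none of them past the threshold. The call of Scn2b was lost without day 9 labelled -Dox replicate 2, and that of Scn9a without that array or day 7 labelled -Dox replicate 1. With 1 array left out at a time, Scn2b gave 0.44 to 0.59 and Scn9a 0.37 to 0.53.

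**Figure D2:**
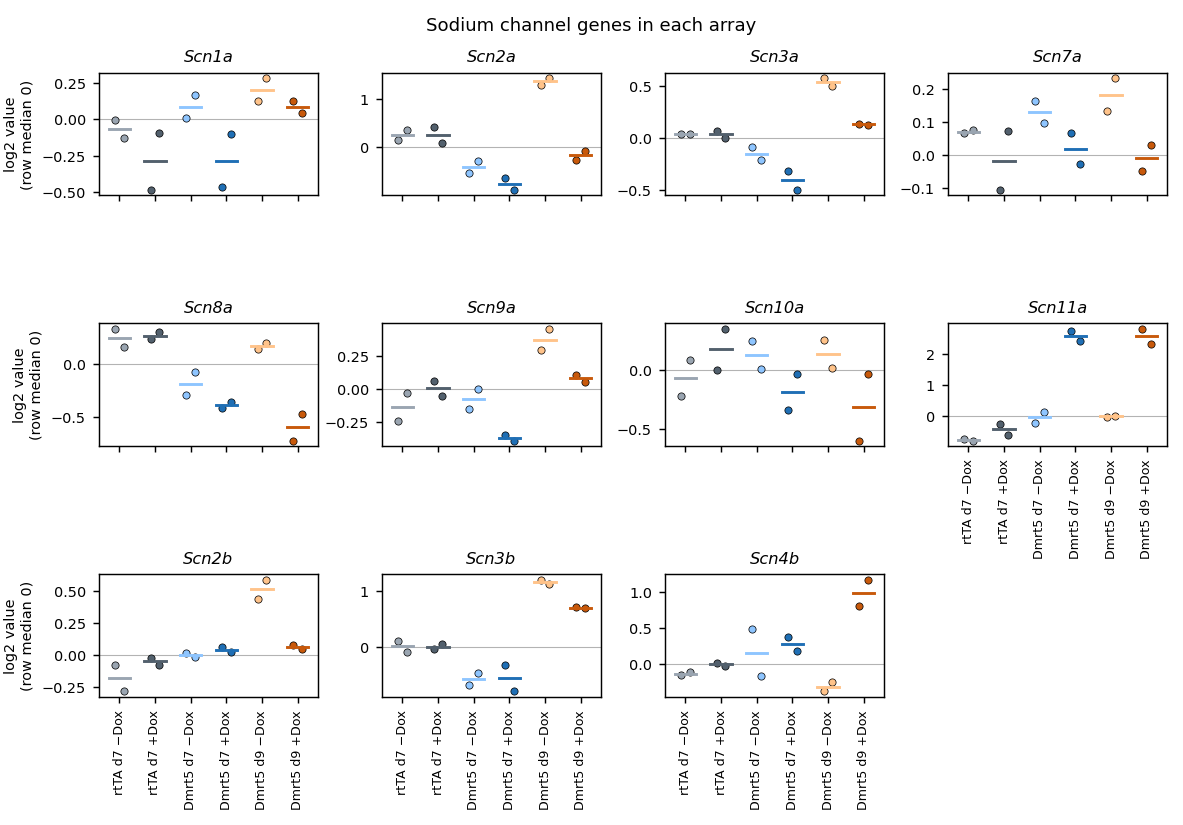
Values of the 11 sodium channel genes in each of the 12 arrays (points) with the group mean (line), as log2 differences from the gene's median; "Dmrt5" stands for the rtTA-Dmrt5 line, "d7" and "d9" for the day, and each panel has its own scale. Scn2a, Scn3a, Scn3b, Scn2b and Scn9a were highest at day 9 labelled -Dox, and Scn11a was above 2 in the 4 rtTA-Dmrt5 arrays labelled +Dox and under 0.2 in the other 8.

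Kcna4, a voltage-gated potassium channel of the rapidly inactivating A-type, rose by 1.82 ± 0.20 (adjusted p = 0.000435), from -0.26 and 0.38 to 1.95 and 1.81, the largest rise among the 115 genes. Kcnj3, a subunit of the G protein-gated inward rectifier through which transmitters slow neurons, went from -0.66 and -0.33 to 0.43 and 0.50 (0.96 ± 0.15). In rtTA cells of day 7 without Dox, Kcnj3 was already at 0.33 and 0.50. Risers among potassium channel genes were spread over roles: 5 of 31 voltage-gated, 4 of 8 calcium- or sodium-activated, 2 of 12 two-pore, 1 of 15 inward rectifier and 1 of 14 auxiliary genes. Kcnn2, a small-conductance calcium-activated channel that shapes the after-hyperpolarisation, rose by 0.87, and the stretch-sensitive two-pore channel Kcnk10 by 0.78. The falls were Kcnk1 (-0.63), a two-pore leak channel, Kcna5 (-0.61), a voltage-gated channel best known from heart, Kcnn4 (-0.58), a calcium-activated channel of blood and epithelial cells, and Kcnj12 (-0.56), an inward rectifier of heart. Each of these 4 falls lost its call without at least 2 of the 4 arrays compared. With 1 array left out they gave -0.67 to -0.60, -0.69 to -0.52, -0.69 to -0.46 and -0.72 to -0.40 in the order named.

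Calcium channel genes were sorted into kinds by gene symbol alone. Rises were called in 3 of 9 pore-forming, 2 of 4 alpha2delta, 2 of 3 beta and 3 of 8 gamma-family genes. Of all genes 7.88% rose. Cacna1h, a low-threshold T-type pore, rose by 1.06 ± 0.14 (adjusted p = 0.00111), and Cacna1d, an L-type pore, by 1.04 ± 0.10 (adjusted p = 0.000223). Cacna1b, the N-type pore of presynaptic terminals, went from -0.55 and -0.41 to 0.44 and 0.47 (0.94 ± 0.11). The beta subunit Cacnb1, which carries pores to the membrane, rose by 0.79, and Cacng2 (stargazin), a gamma-family protein that escorts AMPA receptors to synapses, by 0.62. Cacna2d1, an alpha2delta subunit named after its values were seen, rose by 0.94 ± 0.15.

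Probe sets of a gene often differed in size. Of the 32 called genes, 26 have more than 1 probe set; every probe set passed alone in 0 of these, some did in 24 and none in 2, and 5 had a probe set of the opposite sign. Those of Cacna1d ran from 0.07 to 1.04, those of Kcna4 from 0.61 to 1.82, and those of Kcnj3 from 0.04 to 0.96. Those of Cacna2d1 ran from 0.09 to 1.18, those of Scn9a from -0.37 to 0.64, and those of Scn2b from -0.25 to 0.60.

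Genes for proteins that anchor or partner channels were read from a list of their own. Of 20 measured anchors and partners of channels 8 rose and 0 fell, among them Ank3 (0.69), the ankyrin that clusters sodium channels at the axon initial segment, Dpp6 (1.12), a partner of A-type potassium channels, and Fgf11 (1.14), an intracellular factor that binds sodium channels. Of 17 pumps and exchangers 7 rose and 0 fell, led by the sodium-calcium exchanger Slc8a1 (2.30), and with the chloride extruder Slc12a5 (0.95). Of 21 other channels of excitability 4 rose and 1 fell. Among cell type markers, 9 of 12 neuronal ones were higher and 0 lower, and their mean value went from -0.20 and -0.19 at day 7 to 0.41 and 0.45 at day 9. Markers of undifferentiated ES cells were higher as well, 7 of 8 with 0 lower, and their mean went from -1.07 and -1.03 to -0.18 and -0.22. Of 7 surface epithelium markers 0 were higher and 3 lower, and of 8 neural progenitor markers 1 was higher and 1 lower. Of 9 glial markers 1 was higher and 2 lower. The part of these cell types in the channel changes was not tested. In bulk RNA a change in the number of cells of a type and a change in RNA per cell cannot be told apart, here and below. The 28 rises were counted with all arrays. The count of called channel genes, 32, was 17 without day 7 labelled -Dox replicate 1 or without day 9 labelled -Dox replicate 2, and 21 without day 9 labelled -Dox replicate 1.

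At day 7 the rtTA-Dmrt5 arrays labelled +Dox were set against those labelled -Dox, 2 days after Dox was given. Of the 115 genes 9 rose (7.83%) and 7 fell (6.09%), against 3.08% and 3.85% of all genes. The called genes were 1 sodium, 10 potassium and 5 calcium channel genes, and their groups did not overlap, as was so for 68 of the 115 (59.1%) and for 56.8% of all genes.

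Scn11a, a sodium channel known from small sensory neurons and resistant to tetrodotoxin, had the largest rise. It stood at -0.21 and 0.13 in arrays labelled -Dox and at 2.72 and 2.40 in those labelled +Dox, a change of 2.60 ± 0.19 (adjusted p = 4.69e-05). In the parental line its 4 arrays lay between -0.78 and -0.25. This gene is dim: its median level was read as 2 to 4 on the log2 scale, and 1 probe set measures it. The other 10 sodium channel genes were between -0.37 (Scn1a) and 0.12 (Scn4b), none past the threshold. Scn10a, the other tetrodotoxin-resistant channel of sensory neurons, gave -0.31. Markers of sensory neurons did not rise: of 7 measured, 0 were higher and 2 lower, Isl1 (-1.72) and Pou4f1 (-1.08), transcription factors of those cells.

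Kcnh1, the ether-a-go-go voltage-gated potassium channel, had the largest fall. It stood at 0.72 and 0.64 in arrays labelled -Dox and at -1.65 and -1.22 in those labelled +Dox (-2.12 ± 0.15, adjusted p = 4.69e-05). Kcnc2, a fast voltage-gated potassium channel of rapidly firing neurons, went from 0.15 and 0.41 to -1.55 and -1.66 (-1.89 ± 0.14, adjusted p = 6.85e-05). For both genes the arrays labelled +Dox at day 7 were the lowest of the 12. Cacna1e, the R-type calcium channel pore, went from 0.97 and 1.27 to 0.30 and -0.17 (-1.06 ± 0.21, adjusted p = 0.0163). The other falls were Kcnk10 (-0.72), Cacng2 (-0.60), Kcnj3 (-0.59) and Kcnk2 (-0.59), the last a mechanically gated two-pore channel of the same kind as Kcnk10.

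**Figure D3:**
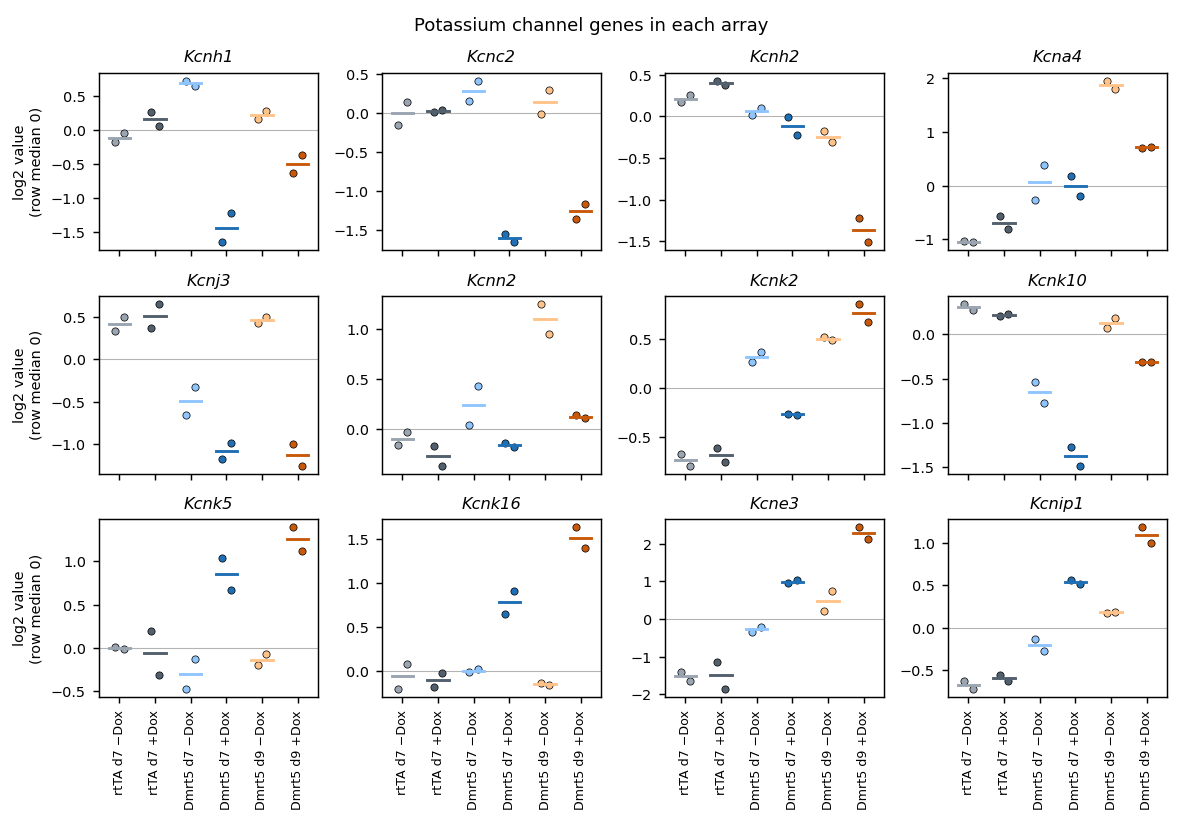
Values of 12 potassium channel genes in each of the 12 arrays (points) with the group mean (line), as log2 differences from the gene's median; "Dmrt5" stands for the rtTA-Dmrt5 line and each panel has its own scale. Kcnh1 and Kcnc2 were low in the 4 rtTA-Dmrt5 arrays labelled +Dox, Kcnk5, Kcnk16, Kcne3 and Kcnip1 were highest in those 4, and Kcna4 and Kcnn2 peaked at day 9 labelled -Dox.

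Kcne3, an auxiliary subunit that holds a potassium channel of epithelia open, rose by 1.27 ± 0.24 (adjusted p = 0.0115), from -0.34 and -0.22 to 0.95 and 1.04. The two-pore channel Kcnk5, known from kidney and other epithelia, rose by 1.15, from -0.47 and -0.13 to 1.03 and 0.66, and its neighbour Kcnk16, known from pancreatic islets, by 0.78, from -0.02 and 0.02 to 0.65 and 0.90. Kcnip1, a calcium-binding partner of A-type potassium channels, rose by 0.75, and Kcnk13, a two-pore channel, by 0.35. Both T-type calcium pores that were measured rose, Cacna1g by 1.05 ± 0.13 (adjusted p = 0.00127) and Cacna1h by 0.92 ± 0.14 (adjusted p = 0.00364). Cacna1g stood at 0.03 and 0.24 and then at 1.22 and 1.13. The L-type pore Cacna1d rose by 0.50. Among the 12 two-pore potassium channel genes, then, 3 rose (Kcnk5, Kcnk16, Kcnk13) and 2 fell (Kcnk10, Kcnk2). Among 9 calcium pores 3 rose and 1 fell. Of all genes 3.08% rose and 3.85% fell.

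Of the 16 called genes, 10 are read by more than 1 probe set, and in none of them did every probe set pass alone. The second, dimmer probe set of Kcnh1 gave -0.37 beside the -2.12 used for the gene, and that of Cacna1e -0.17 beside -1.06. A probe set of Kcnk5 gave -0.03 beside the 1.15 used for the gene, and a probe set of Kcnk13 -0.13 beside 0.35. The 4 probe sets of Kcnip1 ran from 0.00 to 1.22. In this comparison no probe set of a called gene passed the threshold against the direction of its gene. With 1 of the 4 arrays left out, 9 of the 16 calls were lost in at least 1 fit and 7 held in all. Kcne3 (1.21 to 1.33), Cacna1d (0.44 to 0.56) and Kcnk13 (0.33 to 0.36) were lost whichever array was left out. Kcnk5 (0.97 to 1.33) was lost without replicate 1 of either group, Kcnk16 (0.65 to 0.90) without -Dox replicate 1 or +Dox replicate 2, and Cacna1e (-1.29 to -0.82) and Kcnk2 (-0.64 to -0.54) without replicate 2 of either group. Cacng2 (-0.67 to -0.53) was lost without +Dox replicate 2, and Kcnj3 (-0.76 to -0.43) without any but -Dox replicate 1. The count of 16 was 10 without -Dox replicate 2 and 9 without +Dox replicate 2.

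Markers of cell types moved in the same comparison. Of 12 neuronal markers 9 were lower and 0 higher, and their mean value was -0.20 and -0.19 in arrays labelled -Dox and -0.86 and -1.03 in those labelled +Dox. Of 7 surface epithelium markers 4 were higher, Krt7 by 1.45 and Krt19 by 0.98, and of 8 markers of undifferentiated ES cells 4 were higher. Of 8 neural progenitor markers 2 were higher and 3 lower, and of 9 glial markers 0 were higher and 2 lower. Of 10 heart and skeletal muscle markers 0 passed in either direction. Of 20 channel anchors and partners 4 fell and 0 rose: Nrcam (-0.91), Cntn2 (-0.82), Nfasc (-0.63) and Ank3 (-0.55). Among other channels of excitability the sodium leak channel Nalcn fell by 1.23 and the cation channel Trpv2 by 0.94. The part of these cell types in the channel changes was not tested.

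The parental line was used to ask what Dox does without the transgene. None of the 115 genes passed, and neither did any other gene (0%), while 7 channel genes and 929 of all genes had an unadjusted p under 0.05 in the same limma fit. The smallest p among channel genes belonged to Kcnq5, which gave 0.83 ± 0.14 (adjusted p = 0.445), followed by Kcnj10 at 0.55 and Cacng8 at 0.25 (adjusted p = 0.932 for both). Changes of the 115 genes in rtTA cells ran from -0.48 to 0.83, and in rtTA-Dmrt5 cells at day 7 from -2.12 to 2.60.

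The difference between the lines in the day 7 change was then tested itself. It passed for 7 of the 115 genes (6.09%), against 2.84% of all genes. Scn11a (2.25 ± 0.26, adjusted p = 0.00205), Kcnk5 (1.21) and Kcnip1 (0.66) rose more in rtTA-Dmrt5 cells. Kcnh1 (-2.39 ± 0.21, adjusted p = 0.000589), Kcnc2 (-1.92 ± 0.20, adjusted p = 0.00126), Cacng2 (-0.81) and Kcnk2 (-0.63) fell more there. The dimmer probe set of Kcnh1 gave -0.04 for this difference. Of the 4 called genes with several probe sets Kcnh1 was the one in which a probe set passed alone. The 4 probe sets of Kcnip1 ran from -0.08 to 1.24. For the other 9 genes called at day 7 the difference missed the threshold, for example Cacna1g (0.80 ± 0.19, adjusted p = 0.0535), Kcnk16 (0.82 ± 0.19, adjusted p = 0.0518) and Cacna1e (-1.11 ± 0.30, adjusted p = 0.0909). Scn11a, Kcnh1 and Kcnc2 kept their calls whichever of the 8 arrays was left out. Kcnk2 (-0.71 to -0.56) and Kcnip1 (0.60 to 0.73) lost theirs without any of the 8, Kcnk5 (0.96 to 1.46) without any but rtTA labelled +Dox replicate 1, and Cacng2 (-0.89 to -0.73) without rtTA-Dmrt5 labelled -Dox or +Dox replicate 2. The count fell to 3 without rtTA-Dmrt5 labelled -Dox replicate 2 or +Dox replicate 2, and to 4 without rtTA labelled -Dox replicate 2 or rtTA-Dmrt5 labelled -Dox or +Dox replicate 1.

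**Figure D4:**
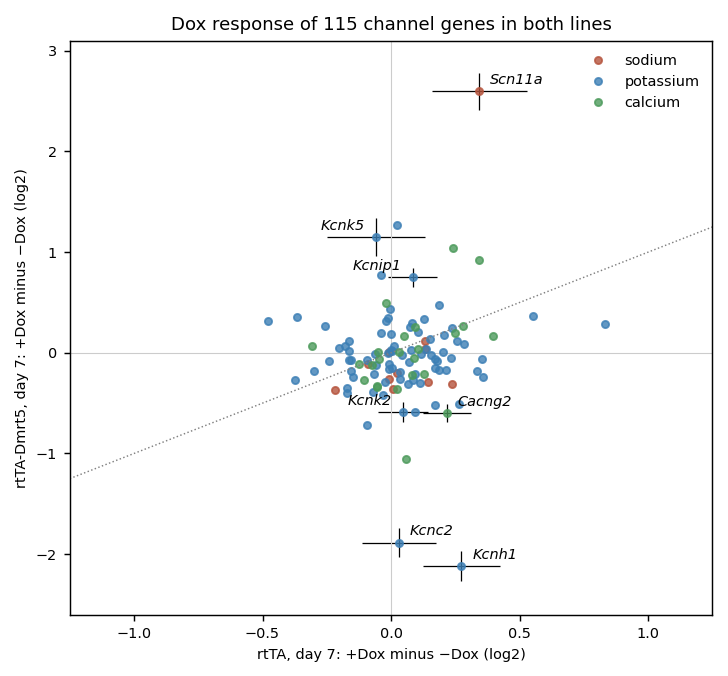
Change with the +Dox label at day 7 in rtTA-Dmrt5 cells (vertical axis, log2) against the same change in parental rtTA cells (horizontal axis, log2) for 115 channel genes, coloured by ion; the dotted line marks equal change, and the crosses are standard errors of the 7 genes whose difference between lines passed adjusted p 0.05. Scn11a lies at 2.60 and 0.34, Kcnh1 at -2.12 and 0.27 and Kcnc2 at -1.89 and 0.03.

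At day 9, 4 days after Dox was given, 13 of the 115 genes rose (11.3%) and 27 fell (23.5%) in arrays labelled +Dox. Of all genes, 16.9% rose and 11.3% fell. This comparison and that of day 9 with day 7 without Dox share the day 9 arrays labelled -Dox. A value that is too high in those arrays adds to a rise in time and to a fall with the +Dox label. Falls were called in 5 of 11 sodium, 18 of 80 potassium and 4 of 24 calcium channel genes, and rises in 2, 10 and 1. Among genes of median level 4 to 8 the fall was called in 35.9% of channel genes and 13.0% of all genes. Of the 40 channel genes of level 2 to 4, 7 were higher (17.5%) and 2 lower (5.00%), against 3.67% and 5.61% of all genes of that level. All 40 called genes had groups that did not overlap, as did 76 of the 115 (66.1%) and 62.0% of all genes.

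Scn2a stood at 1.30 and 1.42 in arrays labelled -Dox and at -0.26 and -0.07 in those labelled +Dox, a change of -1.52 ± 0.15 (adjusted p = 0.000142). Scn8a, the sodium channel pore of mature initial segments and nodes, went from 0.15 and 0.20 to -0.72 and -0.47 (-0.77 ± 0.11, adjusted p = 0.00114). Scn3a gave -0.41, and the beta subunits Scn3b -0.47 and Scn2b -0.45. Scn9a (-0.29), Scn10a (-0.45), Scn7a (-0.19) and Scn1a (-0.12) did not pass. Scn11a was again high in arrays labelled +Dox, at 2.79 and 2.32 against -0.02 and 0.02 (2.56 ± 0.19, adjusted p = 2.95e-05). The beta subunit Scn4b, which is dim (level 2 to 4), stood at -0.38 and -0.24 and then at 0.80 and 1.17 (1.30 ± 0.19, adjusted p = 0.00112). Thus 3 pores and 2 beta subunits fell, and 1 of each rose. The probe sets of Scn3b gave -0.47 and 0.24, with neither passing by itself, and its call was lost whichever array was left out (-0.50 to -0.43). Scn3a (-0.44 to -0.37) lost its call without -Dox replicate 1. The 5 probe sets of Scn8a ran from -1.20 to 0.02 and the 3 of Scn2b from -0.73 to 0.24, and the 4 of Scn2a from -1.55 to -0.03. Of the 40 called channel genes 27 have several probe sets. All passed alone in 4, some in 19 and none in 4, and 7 of the 27 had a probe set of the opposite sign.

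Among calcium channel genes Cacna1e fell by 1.68 ± 0.21 (adjusted p = 0.000488), from 1.37 and 1.35 to -0.34 and -0.30. Its other probe set gave 0.03. Cacna1b went from 0.44 and 0.47 to -0.66 and -0.33 (-0.95 ± 0.11), Cacng2 from 0.67 and 0.65 to -0.27 and -0.21 (-0.90 ± 0.09) and Cacnb1 from 0.79 and 0.81 to 0.16 and -0.14 (-0.79 ± 0.14). The T-type pore Cacna1g was the calcium channel gene that rose, by 0.97 ± 0.13, to 0.85 and 0.88. Cacna1h (0.10) and Cacna1d (0.23), which had risen at day 7, did not pass at day 9. Both had risen by day 9 in arrays labelled -Dox.

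**Figure D5:**
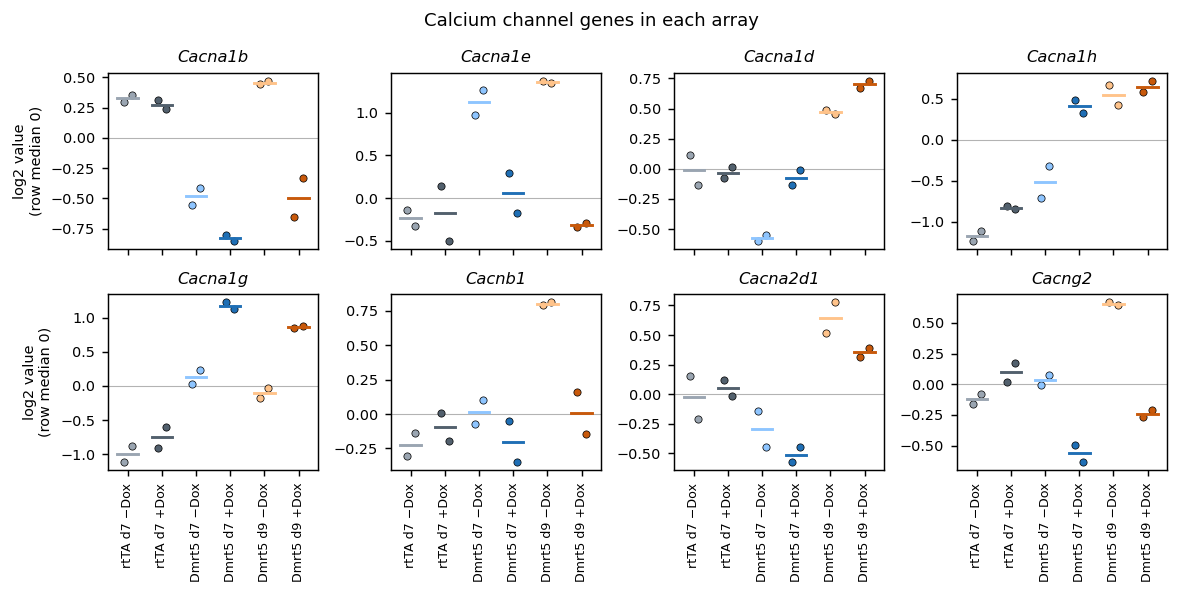
Values of 8 calcium channel genes in each of the 12 arrays (points) with the group mean (line), as log2 differences from the gene's median; "Dmrt5" stands for the rtTA-Dmrt5 line and each panel has its own scale. Cacna1b, Cacnb1 and Cacng2 were highest at day 9 labelled -Dox and lower in both day 9 arrays labelled +Dox, Cacna1g was highest in the 4 rtTA-Dmrt5 arrays labelled +Dox, and Cacna1d and Cacna1h were higher at day 9, under either label, than at day 7 labelled -Dox.

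Falls among potassium channel genes were called in 9 of 31 voltage-gated, 3 of 12 two-pore, 2 of 15 inward rectifier, 2 of 8 calcium- or sodium-activated and 2 of 14 auxiliary genes. Kcnj3 fell most, with a difference of -1.59 ± 0.15 (adjusted p = 0.000114), from 0.43 and 0.50 to -1.0008 and -1.26. Its 4 probe sets ran from -1.59 to 0.06, and the gene's value is that of the brightest. Kcnc2 was at -0.02 and 0.29 and then at -1.36 and -1.17 (-1.40 ± 0.14), Kcna4 fell by 1.16 ± 0.20 from 1.95 and 1.81 to 0.71 and 0.72, and Kcnh2, the delayed rectifier best known from heart, gave -1.12 ± 0.12, from -0.18 and -0.31 to -1.23 and -1.51. Kcnn2 gave -0.99, and Kcnab3, a cytoplasmic beta subunit, -0.82. Kcnh1, the largest fall at day 7, gave -0.71 ± 0.15 at day 9.

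Rises among potassium channel genes were led by auxiliary and two-pore genes. Kcne3 rose by 1.79 ± 0.24 (adjusted p = 0.000643), from 0.22 and 0.74 to 2.43 and 2.11. Kcnk16 rose by 1.66 ± 0.13 (adjusted p = 4.71e-05), from -0.14 and -0.16 to 1.63 and 1.39, and Kcnk5 by 1.39 ± 0.19, from -0.20 and -0.08 to 1.39 and 1.12. Kcne1, a partner of the slow delayed rectifier of heart and inner ear, rose by 1.22, Kcnip1 by 0.91, the voltage-gated Kcna2 of axons by 0.85 and Kcnu1, a pH-sensitive channel of sperm, by 0.83. Kcnk6, another two-pore channel, gave 0.74 and Kcnd3, an A-type channel, 0.54 (-0.20 to 0.54 over its 4 probe sets). Of these, Kcne1, Kcnk16, Kcna2, Kcnu1 and Kcnk6 are dim, with median levels of 2 to 4. Kcnk6 (0.41 to 1.07) lost its call without -Dox replicate 2 or +Dox replicate 1, Kcnd3 (0.42 to 0.67) without -Dox replicate 1 or +Dox replicate 2, and Kcnab3 (-0.98 to -0.67) without replicate 2 of either group.

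The arrays at day 9 differed in markers as well. Of 12 neuronal markers 8 were lower and 0 higher, with a mean of 0.41 and 0.45 in arrays labelled -Dox and of -0.37 and -0.27 in those labelled +Dox. Surface epithelium markers were higher in 5 of 7, with means of -0.36 and -0.47 against 0.73 and 0.55, and markers of undifferentiated ES cells in 6 of 8. Of 8 neural progenitor markers 1 was higher and 3 lower, and of 9 glial markers 1 was higher and 1 lower. Of 10 heart and skeletal muscle markers 0 rose and 3 fell, and of 7 sensory neuron markers 0 rose and 4 fell. Of 20 channel anchors and partners 6 fell and 1 rose, with Fgf11 at -1.60, Ank2 at -1.05 and Ank3 at -0.77. Of 17 pumps and exchangers 4 fell and 1 rose. The spike-in controls added at hybridisation were lower, with a difference of -0.81, in the day 9 arrays labelled +Dox, against -0.32 at day 7 and -0.29 in the parental line. The controls added to the RNA differed by -0.04 at day 9. The Actb probe sets for the 3′ end against the 5′ end, a sign of RNA integrity and labelling, stood at 0.00 and -0.05 in arrays labelled -Dox and at 0.23 and 0.20 in those labelled +Dox, a difference of 0.24, and those of Gapdh differed by 0.12. The part of these differences in the channel changes was not tested.

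The change of the Dox response from day 7 to day 9 was tested as well, since a call at 1 day alone shows no difference. Of the 115 genes 7 passed (6.09%), against 2.42% of all genes. Scn2a (-1.16 ± 0.21, adjusted p = 0.0267), Kcnj3 (-1.002) and Kcnh2 (-0.95) were lower at day 9 relative to day 7. Kcnh1 (1.41 ± 0.21, adjusted p = 0.0135), Kcnk16 (0.88), Kcnk2 (0.85) and Kcna2 (0.65) were higher. For Kcnh1 this was a smaller fall at day 9 than at day 7, while its dimmer probe set gave -0.04 for the difference. For Kcnk2 the change went from -0.59 at day 7 to 0.26 at day 9. Of the 4 called genes with several probe sets, all passed alone in 0, some in 2 and none in 2. The 4 probe sets of Kcnj3 ran from -1.002 to 0.26, 2 of them of opposite sign, and none passed alone. Scn11a gave -0.04 ± 0.26, from changes of 2.60 at day 7 and 2.56 at day 9. All 7 calls were lost in at least 1 fit without an array. The count was 0 without replicate 1 of rtTA-Dmrt5 labelled -Dox at day 7, and also without replicate 1 of that label at day 9. It was 1 without either day 7 array labelled +Dox, 2 without day 9 labelled -Dox replicate 2, and 3 without day 7 labelled -Dox replicate 2 or day 9 labelled +Dox replicate 1. Kcna2 (0.55 to 0.76) and Kcnj3 (-1.17 to -0.84) lost theirs without any of the 8 arrays.

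The lines differed before any Dox. At day 7 labelled -Dox, 23 of the 115 genes were higher in rtTA-Dmrt5 than in rtTA (20.0%) and 13 lower (11.3%), against 15.2% and 13.4% of all genes. Kcnq5, a subunit of the M current that restrains repetitive firing, had the largest difference, with -2.33 and -2.18 in rtTA against 0.16 and 0.25 in rtTA-Dmrt5 (2.46 ± 0.14, adjusted p = 4.19e-06). That value rests on 1 of the 3 probe sets of Kcnq5, the brightest; the lowest of the 3 gave 0.05, and no other passed. Of the 36 called genes 22 have several probe sets, of which all passed alone in 0, some in 20 and none in 2. In 6 of the 22 a probe set had the opposite sign, among them Kcna4, with probe sets from -0.01 to 1.10. Kcnmb4, the neuronal beta subunit of the large-conductance calcium-activated channel, lay at 1.42 and 1.13 against -0.25 and -0.13 (-1.46 ± 0.14, adjusted p = 7.15e-05). Other higher genes were Cacna1e (1.36), Kcne3 (1.24), Cacna1g (1.13), Kcna4 (1.10) and Kcnk2 (1.05). Lower ones were the inward rectifier Kcnj14 (-1.05), Kcnk10 (-0.96), Kcnj3 (-0.91), Cacna1b (-0.81) and the alpha2delta subunit Cacna2d3 (-0.80). Among sodium channel genes Scn11a was higher (0.72) and Scn2a (-0.65), Scn3b (-0.59) and Scn8a (-0.43) were lower.

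Some of these line differences lay along the Dox changes and some against them. Cacna1g, Kcne3 and Scn11a were higher in rtTA-Dmrt5 labelled -Dox and higher again in its arrays labelled +Dox, whereas Cacna1e was higher in the line and lower in its arrays labelled +Dox. The comparisons share the rtTA-Dmrt5 arrays labelled -Dox, so these are values side by side. Markers differed too, with 7 of 8 markers of undifferentiated ES cells lower in rtTA-Dmrt5 and 4 of 12 neuronal markers lower and 1 higher. The Actb measure of the 3′ end against the 5′ end differed by 0.38 between the lines. Their part was not tested. Among sodium channel genes Scn11a (0.55 to 0.89) lost its call without either rtTA array or rtTA-Dmrt5 replicate 2, Scn2a (-0.78 to -0.53) without rtTA replicate 2 or rtTA-Dmrt5 replicate 1, and Scn3b (-0.69 to -0.48) and Scn8a (-0.54 to -0.33) without replicate 1 of either line. Cacna2d3 (-0.92 to -0.68) was lost without any but rtTA replicate 2. The count of 36 was 22 without replicate 1 of either line.

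Many of these genes lie next to each other in the genome, and neighbours were set side by side. In the RefSeq gene order of GRCm38.p6 the 115 genes hold 19 pairs with at most 1 gene between them. Kcnk5 and Kcnk16, adjacent on chromosome 14, both rose at day 7 and at day 9, while the genes beside the pair, Saysd1 (-0.03 at day 7 and -0.07 at day 9) and Nudt13 (0.16 and 0.01), did not pass. Scn3a and Scn2a, adjacent on chromosome 2, both rose from day 7 to day 9 without Dox and both were lower at day 9 in arrays labelled +Dox. These comparisons share the day 9 arrays labelled -Dox with opposite sign, so they are not independent. Scn2b and Scn4b on chromosome 9 are adjacent beta subunit genes that went opposite ways at day 9, by -0.45 and 1.30. Scn11a rose while its neighbours Scn10a (-0.31 and -0.45) and Wdr48 (0.00 and -0.25) did not pass. Kcnip1 rose at both days while the adjacent Kcnmb1 gave -0.07 and -0.05. In the promoter windows shown above, Kcnk16 holds ACACTGT, a match to the loose Dmrt core, and its neighbour Kcnk5, which rose with it, holds no match.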

How the data were processed

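Per the labels' protocols, RNA preparation included a DNase step, and biotin-labelled material was amplified from 5 ng. RMA is the tool that the submitters' processing notes name. Its version and a genome build are not given in the sources used here. As for scale, the authors' deposited values were taken as log2, since RMA works on that scale. In that table every one of 45101 probe sets has a median of 0 over the 12 arrays (within 5e-07), so values hold differences between arrays and no level. Column medians lay between -0.01 and 0.01. No scanner file was used, so the direction, larger for more RNA, was assumed. With 2 arrays in a group, their number limits the precision.

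Apart from 64 controls, the platform annotation gives 34945 probe sets a single gene symbol, 932 more than 1 symbol and 9160 no symbol. RefSeq's table for GRCm38.p6 holds the gene numbers of 34741 and changed 0 symbols. A probe set's class of median level was read from the single-precision spacing of its centred values. Of 20000 simulated probe sets, 97.4% were given the right class and 2.59% a class that was too high. How often the class is right for the deposited probe sets was not tested. A gene's value is the mean over those of its probe sets that fall in the brightest class it reaches. Where channels share close sequence, a probe set can read more than 1 gene, which was not examined.

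Python 3.11.15 read the table. All 12 arrays entered 1 limma fit (version 3.58.1, R 4.3.3) with 6 group means, contrasts and eBayes moderation, which had 6 residual and 3.59 prior degrees of freedom. P-values were adjusted by Benjamini-Hochberg over 18193 genes within each of 7 comparisons, at 0.05. The fit was tested on simulated data of 18193 genes for the day 7 Dox response. There, 79 of 100 genes with a true log2 change of 1 were found, 31 of 100 with 0.5, and 5 of 17993 without any.

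All sodium channel genes are named, with the 12 largest called changes each way for the Dox responses of rtTA-Dmrt5 and 6 for other comparisons. Where fewer than 3 passed, the 3 with the smallest p are given. Genes of 10 lists (7 of cell type markers, 3 of channel partners, other channels and pumps) may be named where they passed. The members, lists and tests were chosen with earlier results of these data known. The alternatives were other summaries of probe sets, samples, weights, prior, level filter, centring and a replicate block, and leaving out 1 array at a time, where the lone array of a group is assumed to vary like the other groups. Deviations of same-numbered arrays correlated at 0.02, -0.05 and 0.11 in the 3 pairs of groups. With so few arrays this cannot show whether same-numbered arrays shared a culture or batch.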

Additional observations from a re-analysis of the deposited data

Results flagged for a closer look

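For 7 channel genes the change with the +Dox label at day 7 differed between the lines by the interaction test in limma. The difference, rtTA-Dmrt5 minus rtTA, was 2.25 for Scn11a, 1.21 for Kcnk5 and 0.66 for Kcnip1. It was -2.39 for Kcnh1, -1.92 for Kcnc2, -0.81 for Cacng2 and -0.63 for Kcnk2. The dimmer probe set of Kcnh1 gave -0.04.

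For 7 channel genes the change with the +Dox label in rtTA-Dmrt5 cells differed between the days. The difference, day 9 minus day 7, was 1.41 for Kcnh1, 0.88 for Kcnk16, 0.85 for Kcnk2 and 0.65 for Kcna2. It was -1.16 for Scn2a, -1.002 for Kcnj3 and -0.95 for Kcnh2. The dimmer probe set of Kcnh1 gave -0.04 here too, and the 4 probe sets of Kcnj3 ran from -1.002 to 0.26. Kcnh1 and Kcnk2 differed in both tests. No group holds enough arrays for a search for a single array that stands apart.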

How the results depend on the processing

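Counts of called channel genes moved by more than 1.5 times under few settings apart from left-out arrays. The difference between lines went from 7 to 4 with the replicate block within line and day and to 3 with each probe set on its own. The difference between days went from 7 to 4 with the mean of all probe sets of a gene or with each probe set on its own, to 3 with only the arrays compared and to 0 with the replicate block, where the limma fit has 3 residual degrees of freedom. The cause was not tested. With 1 array left out, the counts ran from 9 to 12 for the day 7 Dox response (16 with all arrays), from 30 to 37 at day 9 (40), from 3 to 8 between lines (7), from 0 to 8 between days (7), from 17 to 25 for day 9 minus day 7 (32) and from 22 to 27 between the lines without Dox (36). The parental response gave 0 in all settings. Whether replicate numbers pair samples was not settled. With the block the other counts were 14 at day 7, 36 at day 9, 27 for day 9 minus day 7 and 33 between the lines.

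Of 86 named calls, 48 kept their side of the threshold under every alternative and 50 whichever array was left out, and 0 changed direction. For each probe set on its own, these counts took a single probe set of a gene, from its brightest class and with the smallest adjusted p. Other probe sets of opposite sign, such as that of Scn3b at day 9 (0.24 beside -0.47), were therefore not counted as a change of direction. Of 1074 values recomputed for them, 194 were no longer past the threshold, 129 of these without an array. Re-centring moved no array by more than -0.03. With array weights 3 named calls were lost. With 2 arrays and a mean in each group, the weights within a group are equal by design, so this setting cannot mark down a single array. Channel genes were dim: 42 of 115 genes had a median log2 level under 4, where changes are measured least well.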
